A study of Mus musculus with 88 samples.

Results

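The non-neuronal nuclei of the medial prefrontal cortex (mPFC) were profiled by nuclear RNA-Seq 30 minutes after contextual fear conditioning (CFC), a task in which mice learn to associate a context with a foot shock. The 6 libraries compared were the 3 CFC30 and the 3 naive libraries labelled mPFC and Glia - NeuN-, of 88 samples in the series. All came from C57BL/6J mice 4 months of age, which the study describes as male and wild-type and which were housed singly before the experiment. The CFC30 mice received foot shocks in the context and were killed 30 minutes after they entered it, while the naive mice stayed in the home cage, so that the shock, the new context and the handling of the CFC30 mice cannot be told apart. The nuclei were fixed, stained for NeuN, an antigen of neuronal nuclei, and collected as the NeuN- fraction. The fraction is a mixture of astrocytes, oligodendrocytes and their precursors, microglia and vascular cells. Nuclear RNA after 10 minutes (CFC10, 3 libraries), the NeuN+ nuclei of the mPFC and the NeuN- nuclei of the hippocampus were used for comparison. Whether each RNA library came from 1 animal is not given in the sources used here, so the p-values measure the spread between these libraries.

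Non-neuronal cells of the brain respond to neuronal activity and to stress hormones within minutes. Neurotransmitters and neuromodulators raise calcium and cyclic AMP in astrocytes, and the cyclic AMP response element binding protein CREB then drives early response genes such as the Nr4a and *Fos* families. Glucocorticoids, which rise in the blood after foot shock, bind a nuclear receptor that is present in astrocytes, oligodendrocytes, microglia and endothelial cells. Chaperone genes are controlled by other factors, HSF1 for the cytosolic chaperones and ATF6 and XBP1 for those of the endoplasmic reticulum (ER). Because nuclear RNA was counted over exons and introns, the values follow recent transcription more closely than those of whole-cell mRNA.

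The 9 NeuN- libraries of the mPFC held 10577263 to 11515785 counts. Levels are given as CPM, the count of a gene scaled to the total of its library. *Rbfox3*, the gene of the NeuN antigen, stood at 33.8 ± 23.6 CPM (SD, n = 3) in naive and 36.8 ± 14.6 CPM in CFC30 NeuN- nuclei, or 1.94% and 2.05% of its level in NeuN+ nuclei. It was highest in naive replicate 3 with 644 counts and in CFC30 replicate 2 with 570 counts. The same pair of libraries stood apart in endothelial markers, whose summed level was 226.7, 250.7 and 473.3 CPM in the naive and 237.7, 735.1 and 346.1 CPM in the CFC30 libraries. The count of all genes called between CFC30 and naive is therefore also given without these 2 libraries. So are the counts of gene lists that rest on them, an alternative chosen after seeing the data. Counts below of any other kind were not repeated without these 2 libraries. Summed astrocyte markers ranged from 7942 to 8492 CPM in the naive and from 7962 to 8802 CPM in the CFC30 libraries, and overlapped.

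Of 14866 genes tested with edgeR, 398 were higher and 472 lower in CFC30 than in naive NeuN- nuclei at an adjusted p under 0.05, which is 2.68% and 3.18% of the genes and 5.85% together. By CPM alone, all CFC30 libraries lay above all naive libraries for 9.28% of the genes and below them for 15.6%. Most changes were small. The median log2 fold change was 0.43 among the genes called higher and -0.50 among those called lower, and 43 genes were higher and 49 lower by more than 2-fold. Genes of the Nr4a family, cyclic nucleotide and kinase signalling genes, cytosolic and ER chaperones and glucocorticoid-responsive genes were among those that rose, and microglial genes and long noncoding RNAs were among those that fell. Without naive replicate 1 the counts were 201 higher and 201 lower, without naive replicate 2 they were 212 and 241, without CFC30 replicate 1 the lower count was 297, and without both naive replicate 3 and CFC30 replicate 2 they were 262 and 314. In bulk nuclei, fewer cells of a type and less RNA per cell cannot be told apart.

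**Figure D1:**
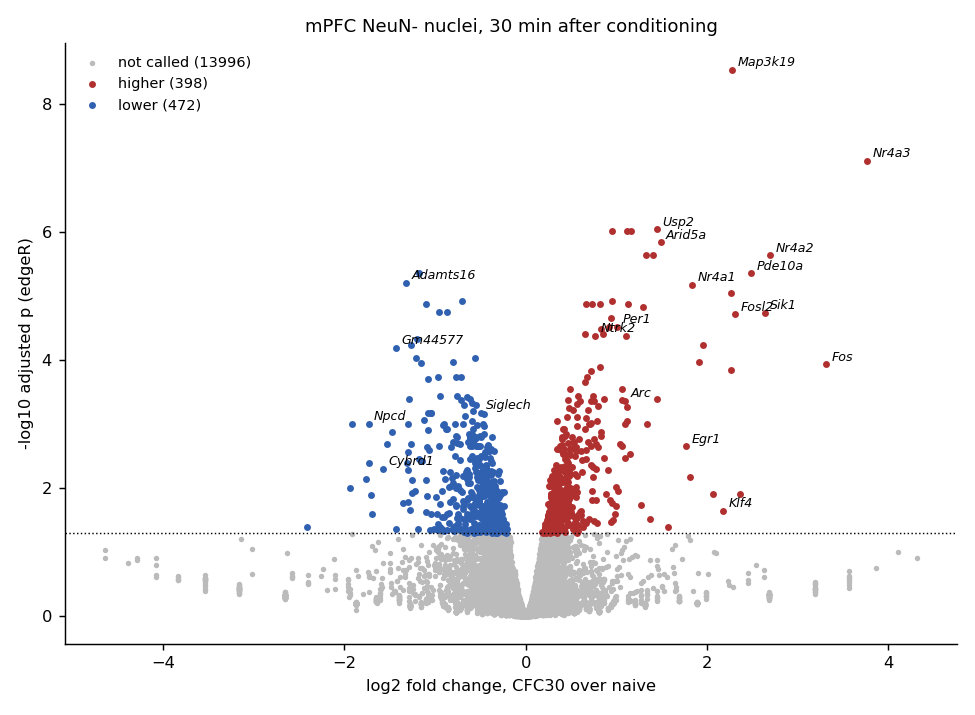
Each point is 1 of the 14866 genes tested, with the log2 fold change of CFC30 over naive mPFC NeuN- nuclei on the x axis and -log10 of the edgeR adjusted p on the y axis; red marks the 398 genes called higher, blue the 472 called lower, grey the rest, and the dotted line the threshold of 0.05. *Map3k19* and *Nr4a3* have the smallest adjusted p, 2.9e-09 and 7.63e-08.

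*Nr4a3* showed the largest rise among the named genes. The largest rises and falls were named on condition that the groups did not overlap, so lack of overlap in them is not a separate result. The Nr4a family comprises orphan nuclear receptors that are transcribed at once after cyclic AMP or calcium signals and act without a known hormone. *Nr4a3* (chr4:48045153-48086447, + strand; gene coordinates are GRCm38) stood at 3.13, 2.91 and 3.78 CPM in the naive libraries and at 38.6, 57.5 and 35.2 CPM in the CFC30 libraries. All CFC30 libraries lay far above the naive libraries, with CFC30 replicate 2 the highest. The log2 fold change was 3.77 ± 0.20 (SE; edgeR adjusted p = 7.63e-08). *Nr4a1* (chr15:101254269-101274795, + strand) stood at 7.12, 7.33 and 5.77 CPM in naive and 23.0, 28.9 and 19.4 CPM in CFC30 libraries, again without overlap, with a log2 fold change of 1.84 ± 0.15 (adjusted p = 6.5e-06). *Nr4a2* rose from 1.82, 1.94 and 1.51 CPM to 12.3, 13.1 and 8.57 CPM (log2 fold change 2.70 ± 0.20, adjusted p = 2.3e-06). All 3 members of the family thus rose without overlap between the groups.

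The 250 bases before a RefSeq start site of *Nr4a1* and of *Nr4a3* are shown because both hold several copies of TGACG, the core of the cyclic AMP response element. The capitals mark the cores (CGTCA where the core is on the opposite strand), the sequences are from RefSeq (GRCm38.p6), and each runs 5′ to 3′ on the strand of its gene.
*Nr4a1* (chr15:101266596-101266845, +): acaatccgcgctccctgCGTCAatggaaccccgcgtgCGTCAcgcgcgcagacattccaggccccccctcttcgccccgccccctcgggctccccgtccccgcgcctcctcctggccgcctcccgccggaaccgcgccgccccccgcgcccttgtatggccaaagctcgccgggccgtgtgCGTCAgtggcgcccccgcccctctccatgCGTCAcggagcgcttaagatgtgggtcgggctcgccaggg
*Nr4a3* (chr4:48045055-48045304, +): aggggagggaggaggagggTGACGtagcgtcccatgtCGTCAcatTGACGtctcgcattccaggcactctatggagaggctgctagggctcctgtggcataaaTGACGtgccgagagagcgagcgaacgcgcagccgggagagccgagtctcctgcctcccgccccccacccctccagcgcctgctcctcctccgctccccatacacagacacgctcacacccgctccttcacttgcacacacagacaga
Each stretch holds 4 cores. Over windows from 250 bases before to 50 bases after a start, searched on both strands, TGACG occurred in 30.3% of the 12872 windows of 10011 tested genes, in 35.7% of the windows of the risen genes and in 18.1% of those of the fallen genes. By gene, 3534 of the 10011 tested genes and 138 of 308 risen genes with a window held it. Of 13 risen early response genes with a window, 12 held it. The full palindrome TGACGTCA, which contains the core on both strands, was in 3.03% of all windows, 5.59% of those of risen genes and 1.29% of those of fallen genes.

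Of the 17 early response transcription factor genes tested, 9 rose and none fell, where 2.68% of all genes tested rose. The median log2 fold change of the 17 was 1.11, against 0 for all genes. The 9 were *Nr4a3*, *Fos*, *Nr4a2*, *Fosl2*, *Klf4*, *Klf2*, *Nr4a1*, *Egr1* and *Crem*. *Fos*, a subunit of the AP-1 factor, rose from 0.347, 0.353 and 0.189 CPM to 2.65, 3.69 and 2.71 CPM (log2 fold change 3.32 ± 0.38, adjusted p = 0.00012), and *Fosl2*, a partner in the same factor, from 2.00, 2.83 and 3.12 CPM to 8.70, 14.9 and 15.0 CPM (2.31 ± 0.22, adjusted p = 1.9e-05). *Egr1*, a zinc finger factor, stood at 2.00, 2.03 and 1.42 CPM in naive and 5.58, 8.35 and 4.42 CPM in CFC30 libraries (1.77 ± 0.29, adjusted p = 0.0022). *Crem*, which encodes a cyclic AMP responsive factor and its short repressor form, rose by less, from 35.7 ± 2.07 to 51.8 ± 4.08 CPM (0.56 ± 0.08, adjusted p = 0.00077). The 7 members below the expression filter included *Npas4*, a factor of active neurons, with 1, 4 and 12 counts in the naive and 3, 8 and 10 counts in the CFC30 NeuN- libraries. Over the 6 fits that each left out 1 library, 7 to 9 members were called.

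Among the early response effectors, genes that do not encode transcription factors, 9 of 18 rose and none fell (median log2 fold change 0.34). The count was 5 without naive replicate 1, naive replicate 2 or CFC30 replicate 2, and 7 with DESeq2. *Sik1*, a salt-inducible kinase that restrains CREB coactivators, rose from 2.26, 3.71 and 4.73 CPM to 16.0, 29.6 and 19.3 CPM (2.64 ± 0.25, adjusted p = 1.8e-05). *Ccn1*, a secreted matrix protein, rose from 1.65, 2.74 and 1.61 CPM to 7.60, 8.35 and 6.95 CPM (1.95 ± 0.21, adjusted p = 5.7e-05). *Arc*, which encodes a capsid-forming protein of the postsynaptic cytoskeleton, stood at 6.86, 5.83 and 6.81 CPM in naive and 14.9, 15.1 and 10.8 CPM in CFC30 NeuN- nuclei (1.09 ± 0.14, adjusted p = 0.00042). The lowest CFC30 library lay above the highest naive library for each of these genes. *Plk2*, a polo-like kinase (0.93 ± 0.21), *Btg2*, an antiproliferative gene (0.63 ± 0.16), and *Homer1*, a postsynaptic scaffold (0.38 ± 0.10), also rose with adjusted p of 0.015, 0.032 and 0.029, and were named after their values were seen. The rise of *Homer1*, from 52.5 to 67.1 CPM, was only 2.97% of its rise in NeuN+ nuclei. Of the feedback inhibitors of MAP kinases, 10 were tested and 1 fell (*Dusp8*, -0.57 ± 0.16, adjusted p = 0.045). *Dusp8* lost its call in each of the 6 fits without 1 library, with an adjusted p of up to 0.191. *Dusp1*, the phosphatase of the glucocorticoid and early responses, was below the filter because its annotated gene body is long, with 35, 33 and 34 counts in naive and 62, 104 and 71 counts in CFC30 libraries. Its log2 fold change was 1.25 in the fit without a filter (adjusted p = 6.0e-08).

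**Figure D2:**
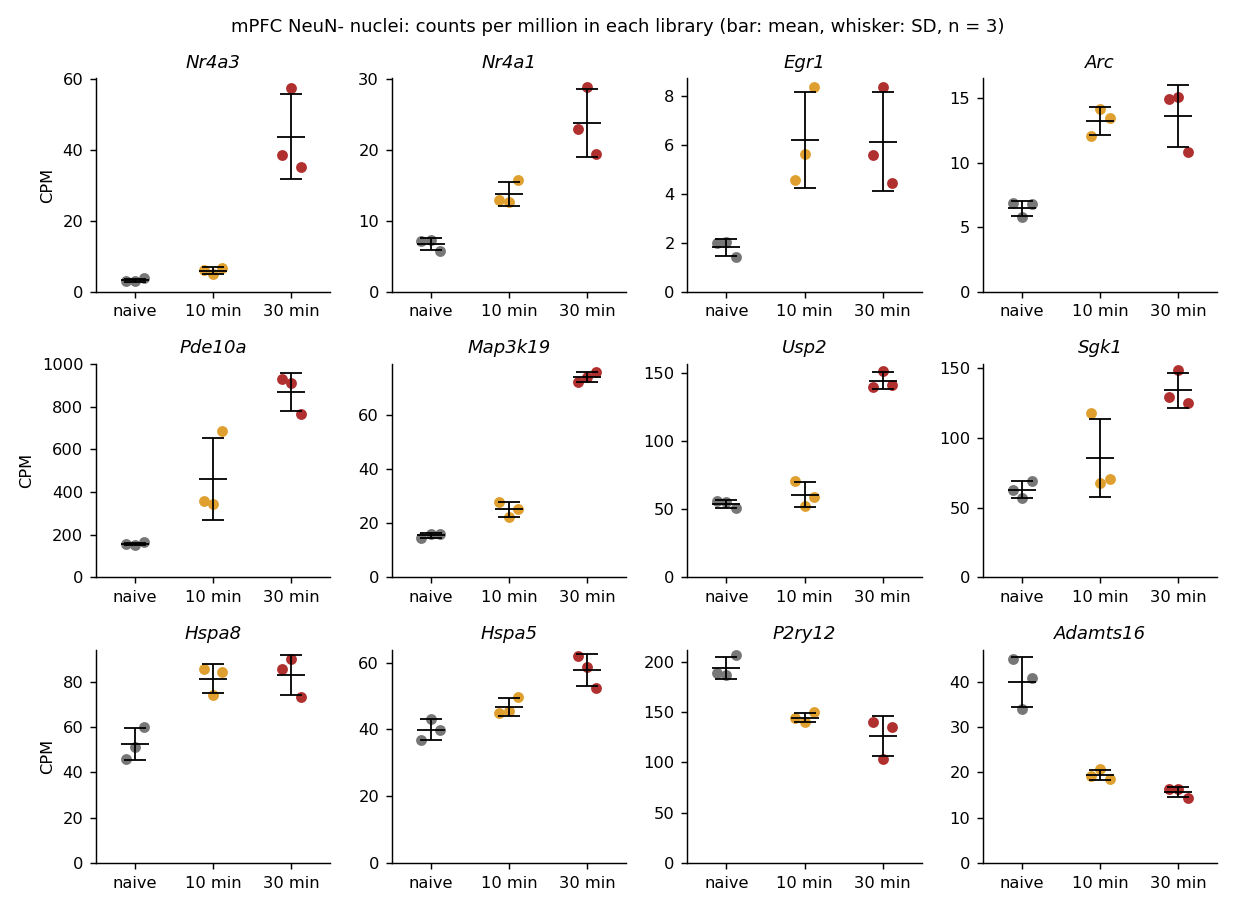
CPM of 12 genes (y axis, linear from 0) in each of the 3 naive, 3 CFC10 (10 min) and 3 CFC30 (30 min) mPFC NeuN- libraries, with the mean as a bar and the SD as whiskers. *Nr4a3*, *Map3k19* and *Usp2* were higher after 30 than after 10 minutes, the levels of *Egr1*, *Arc* and *Hspa8* overlapped between the times, and *P2ry12* and *Adamts16* were lower at both times than in naive libraries.

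*1700016P03Rik*, the host transcript of miR-212 and miR-132, rose from 0.275 ± 0.193 to 1.40 ± 0.462 CPM (log2 fold change 2.36 ± 0.50, adjusted p = 0.012). The call was lost without naive replicate 1, naive replicate 2 or CFC30 replicate 2, with an adjusted p of up to 0.0722. The mature 3p miRNAs of the host are shown because they share a seed (bases 2 to 8, in capitals; RefSeq, GRCm38.p6), and the mature forms themselves were not measured in these data.
mmu-miR-132-3p: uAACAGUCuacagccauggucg
mmu-miR-212-3p: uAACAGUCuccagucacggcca
Both carry the seed AACAGUC and differ in the bases after it.

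The rise with the smallest adjusted p was that of *Map3k19* (chr1:127815253-127855031, - strand), a gene of the MAP3K family of kinases. It stood at 14.5, 16.0 and 16.1 CPM in the naive and 72.3, 73.8 and 75.7 CPM in the CFC30 libraries. The groups were tight and far apart (2.28 ± 0.09, adjusted p = 2.9e-09). In hippocampal nuclei sorted after saline in the same series, *Map3k19* was at 35.7 CPM in GFAP nuclei, 6.67 in PU.1 nuclei, 1.03 in triple-negative (3XNeg) nuclei and 1.14 CPM in NeuN nuclei, so that there its level was highest in the population sorted for an astrocyte antigen. *Pde10a* (chr17:8525372-8986648, + strand), a phosphodiesterase of cyclic AMP and cyclic GMP, rose from 155, 154 and 164 CPM to 931, 913 and 765 CPM (2.49 ± 0.20, adjusted p = 4.3e-06). Its level was higher in naive NeuN+ nuclei, at 1368 to 1527 CPM. Of 5 tested markers of striatal neurons, among which *Pde10a* is listed, it alone rose, and *Drd1* and *Drd2*, which define these neurons, had 0 to 9 counts in the naive and CFC30 NeuN- libraries. Of the excitatory and inhibitory neuron markers, 8 and 7 were tested and none was called by edgeR or DESeq2, nor had any an unadjusted p under 0.05.

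*Usp2* (chr9:44067021-44095627, + strand), a deubiquitinating enzyme of the circadian clock, rose from 55.7, 55.3 and 50.7 CPM to 140, 151 and 141 CPM (1.45 ± 0.09, adjusted p = 8.9e-07). *Arid5a*, an RNA- and DNA-binding protein, rose from 16.9 ± 1.15 to 46.6 ± 6.31 CPM (1.49 ± 0.11, adjusted p = 1.4e-06). *Gem*, a small GTPase that inhibits calcium channels, rose from 2.78 ± 0.735 to 13.2 ± 1.77 CPM (2.27 ± 0.19, adjusted p = 8.8e-06). Each of these groups was free of overlap. *Ntrk2*, the receptor of the neurotrophin BDNF, was already abundant and rose from 636, 672 and 637 CPM to 1027, 1173 and 1057 CPM (0.77 ± 0.08, adjusted p = 4.1e-05). Further risen genes, named after their values were seen, were *Hdac4*, a class II histone deacetylase (1.16 ± 0.08, adjusted p = 9.4e-07), *Pde7b*, a phosphodiesterase of cyclic AMP (1.11 ± 0.08, adjusted p = 9.4e-07), *Dio2*, the astrocyte enzyme that activates thyroid hormone (1.40 ± 0.11, adjusted p = 2.3e-06), and *Epas1*, the hypoxia-inducible factor HIF2A (1.13 ± 0.10, adjusted p = 1.3e-05). *Klf4* and *Klf2*, Kruppel-like factors of endothelial and other cells, rose to 5.04, 11.8 and 4.06 CPM and 5.77, 13.8 and 5.24 CPM in the CFC30 libraries, from 1.57 ± 0.541 and 2.00 ± 0.421 CPM. CFC30 replicate 2, the library with the most endothelial marker RNA, was the highest for both, and without it and naive replicate 3 neither was called (adjusted p = 0.129 and 0.128). *Klf4* also lost its call without naive replicate 1, 2 or 3 or CFC30 replicate 2, and *Klf2* without naive replicate 2 or 3, with adjusted p of up to 0.114 and 0.0687. In the list of vascular response genes 3 of 10 rose with all libraries and 1 without those 2, and the part of endothelial RNA in these calls was not tested further.

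Many cytosolic chaperones rose. The risen members counted here include the mitochondrial *Hspd1* and the ER co-chaperone *Dnajc3*. *Dnajc3* is counted again among the ER chaperones below. Chaperones of the HSP70 and HSP90 families fold and refold proteins with the help of DNAJ and BAG co-chaperones. Of the HSP90 chaperones and co-chaperones 10 of 18 tested were higher and none was lower (median log2 fold change 0.56), as were 3 of 10 HSP70 and HSP110 members (0.35) and 4 of 21 DNAJ and BAG members (0.07), the last of which were 2 without naive replicate 2, naive replicate 3 or CFC30 replicate 2. *Hsp90ab1*, a constitutive HSP90, stood at 52.6, 60.9 and 69.8 CPM in naive and 96.7, 107 and 90.6 CPM in CFC30 libraries (0.71 ± 0.10, adjusted p = 0.00097). *Hspa8*, the constitutive HSP70, stood at 45.9, 51.3 and 60.0 CPM in naive and 85.9, 90.3 and 73.3 CPM in CFC30 libraries (0.69 ± 0.10, adjusted p = 0.00097). *Hsph1*, the nucleotide exchange factor HSP110, rose from 26.4, 26.5 and 28.8 CPM to 60.9, 72.1 and 41.8 CPM (1.12 ± 0.15, adjusted p = 0.00054). The CFC30 and naive libraries did not overlap for these chaperones, and CFC30 replicate 2 was the highest for each. *Dnajb1* (1.16 ± 0.20), *Stip1* (0.78 ± 0.13) and *Chordc1* (0.55 ± 0.09), which are co-chaperones of HSP70 and HSP90, rose with adjusted p of 0.0029, 0.0020 and 0.0023. The inducible HSP70 gene *Hspa1b* was close to the detection limit, at 0.0925 ± 0.0946 and 0.568 ± 0.492 CPM, and was not called (adjusted p = 0.156). No subunit of the chaperonin TRiC was called, although the log2 fold change of all 8 was above 0 (median 0.26) and 7 had an unadjusted p under 0.05. DESeq2 called none either. Without naive replicate 3 and CFC30 replicate 2, 6 HSP90 members, 2 HSP70 members and 2 DNAJ and BAG members were called higher.

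The heat shock element, an array of inverted GAA repeats bound by HSF1, was searched as GAANNTTCNNGAA on both strands. It occurred in 0.489% of all windows and in 1.4% of those of risen genes. By gene, 57 of 10011 tested and 5 of 308 risen genes with a window held it. Among the 13 risen genes of the HSP70, HSP90 and DNAJ lists with a window it was found for *Hsph1*, *Chordc1* and *Hspd1*, the mitochondrial HSP60, and for these the site is shown in capitals on the strand of the gene (RefSeq, GRCm38.p6).
*Hsph1* (chr5:149636279-149636308, -): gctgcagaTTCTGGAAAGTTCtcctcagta
*Chordc1* (chr9:18292260-18292289, +): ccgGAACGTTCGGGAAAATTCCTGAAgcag
*Hspd1* (chr1:55088053-55088082, -): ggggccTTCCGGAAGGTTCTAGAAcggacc
*Chordc1* holds 3 and *Hspd1* 2 overlapping matches on both strands.

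ER chaperones and genes of the unfolded protein response were also higher. Of 22 tested, among which *Ddit3* has 2 annotated entries, 9 were higher and none was lower, and the log2 fold change was above 0 in all 22 (median 0.31). *Hspa5*, the ER chaperone BiP, stood at 36.7, 43.1 and 39.9 CPM in naive and 62.1, 58.8 and 52.5 CPM in CFC30 libraries (0.56 ± 0.08, adjusted p = 0.0011). The groups did not overlap. *Hyou1*, an ER chaperone of the HSP110 type (0.47 ± 0.08, adjusted p = 0.0029), *Pdia3* and *Pdia6*, protein disulphide isomerases (0.38 ± 0.07 and 0.47 ± 0.09, adjusted p = 0.0049 and 0.0079), and *Creld2*, an ER stress-inducible protein (0.73 ± 0.16, adjusted p = 0.015), rose likewise. *Pdia4*, *Hsp90b1*, *Calr* and *Dnajc3* were the other risen members, with log2 fold changes of 0.27 to 0.35. The number of members called was 4 without naive replicate 1, 2 or 3 or CFC30 replicate 1, 5 without CFC30 replicate 2 and 8 without CFC30 replicate 3. It was 3 without both naive replicate 3 and CFC30 replicate 2. *Hspa5* kept its call in each of these fits. Those of *Creld2*, *Pdia6*, *Hsp90b1* and *Dnajc3* were lost in at least 1 of them, with adjusted p of up to 0.0757, 0.0552, 0.1225 and 0.1467. *Calr* and *Pdia4* were not followed singly through these fits, and the counts above leave little room for their calls.

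The ER stress response element bound by ATF6 with NF-Y, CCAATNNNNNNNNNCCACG, was rare, with a match in 15 of the 12872 windows (0.117%). By gene, 15 of 10011 tested and 6 of 308 risen genes with a window held it. Of the 8 risen ER chaperone genes with a window 6 held it, and these are shown with the element in capitals (its reverse complement in *Creld2* and *Calr*), each on the strand of its gene (RefSeq, GRCm38.p6).
*Hspa5* (chr2:34772020-34772049, +): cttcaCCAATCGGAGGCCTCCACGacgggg
*Creld2* (chr15:88819515-88819544, +): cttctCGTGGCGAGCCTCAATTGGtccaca
*Pdia6* (chr12:17266486-17266515, +): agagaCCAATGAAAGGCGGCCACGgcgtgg
*Hsp90b1* (chr10:86705632-86705661, -): caagcCCAATCGCAAGGAGCCACGcttcgg
*Calr* (chr8:84847069-84847098, -): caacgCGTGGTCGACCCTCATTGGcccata
*Dnajc3* (chr14:118937822-118937851, +): cacaaCCAATCAGCGCCAACCACGacccgg
The other 9 tested genes with the element, among them the ER chaperone *Canx* (0.09, adjusted p = 0.560) and the ER ubiquitin ligase *Syvn1* (0.17, adjusted p = 0.432), were not called. No fallen gene held it.

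Of 31 genes listed as responsive to glucocorticoids 15 rose and 1, *Angptl4*, fell, with a median log2 fold change of 0.54. The list was drawn up with earlier results of these data known. *Sgk1*, a kinase of ion transport and a direct target of the glucocorticoid receptor, rose from 62.7, 56.7 and 68.7 CPM to 129, 148 and 125 CPM (1.12 ± 0.16, adjusted p = 0.00088). *Per1*, a repressor of the circadian clock that is also induced by cyclic AMP, rose from 57.1, 60.5 and 65.6 CPM to 109, 145 and 109 CPM (1.01 ± 0.10, adjusted p = 3.0e-05). *Ddit4*, an inhibitor of mTOR, rose from 3.91, 3.71 and 3.31 CPM to 6.32, 7.47 and 8.30 CPM (1.04 ± 0.17, adjusted p = 0.0020). None of these genes overlapped between the groups. *Nfkbia*, which encodes the inhibitor of NF-kB, rose from 4.89 ± 0.450 to 10.0 ± 2.58 CPM (1.06 ± 0.18, adjusted p = 0.0022), and *Klf9*, a Kruppel-like factor, from 81.3 ± 1.63 to 113 ± 15.3 CPM (0.50 ± 0.08, adjusted p = 0.0024). *Zbtb16*, a zinc finger repressor (1.37 ± 0.35, adjusted p = 0.030) and *Tsc22d3*, the leucine zipper protein GILZ (0.91 ± 0.17, adjusted p = 0.0052), rose too and were named after their values were seen. *Fkbp5*, a co-chaperone of the glucocorticoid receptor, stood at 38.6, 48.8 and 73.5 CPM in naive and 74.1, 110 and 100 CPM in CFC30 libraries and was not called (0.85 ± 0.31, adjusted p = 0.128). *Glul* and *Mt1* were not called either, at 0.19 ± 0.06 with an adjusted p of 0.0827 for *Glul*. When 1 library was left out, 10 to 15 members were called higher, and 10 without both naive replicate 3 and CFC30 replicate 2.

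The palindrome of the glucocorticoid response element, GNACANNNTGTNC, was in 0.326% of all windows and 1.17% of those of risen genes. By gene, 39 of 10011 tested and 4 of 308 risen genes with a window held it. Of 14 risen listed genes with a window, it was found near a start of *Sgk1* and of *Txnip*, an arrestin-like inhibitor of thioredoxin (0.54 ± 0.14, adjusted p = 0.034), and these sites are shown in capitals (RefSeq, GRCm38.p6).
*Sgk1* (chr10:21993694-21993723, +): tgcggaaaGAACAGAATGTTCtcggagatt
*Txnip* (chr3:96557777-96557806, +): cgctaggaGCACACCGTGTCCacgcgcccc

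Corticosterone alone (2 mg/kg, killed after 30 minutes) was given to other mice of the series, whose hippocampal nuclei were sorted into GFAP, PU.1 and 3XNeg populations (4 libraries for each treatment). It offers values for the same genes in another region. All 4 corticosterone libraries lay above all 4 saline libraries for 2.89% of the tested genes in GFAP nuclei, 4.59% in PU.1 nuclei and 5.58% in 3XNeg nuclei. Among the 398 genes that rose in mPFC NeuN- nuclei after CFC these shares were 14.6%, 15.1% and 20.9%. In 15 risen genes (3.77%, against 0.323% of all genes) the corticosterone libraries were higher without overlap in all 3 populations, among them *Usp2*, *Ddit4*, *Nfkbia*, *Fam107a*, *Irs2*, *Zbtb16* and *Txnip*. *Usp2* was at 59.3 ± 2.53 CPM after saline and 80.8 ± 6.17 CPM after corticosterone in PU.1 nuclei, and at 40.4 ± 3.13 and 57.8 ± 7.92 CPM in 3XNeg nuclei (SD, n = 4). *Sgk1* was at 192 ± 40.7 and 373 ± 42.2 CPM in 3XNeg nuclei, and its levels overlapped in GFAP nuclei. Early response genes differed among themselves. *Sik1* was higher without overlap after corticosterone in PU.1 nuclei (4.42 ± 0.631 and 7.80 ± 1.29 CPM) and in 3XNeg nuclei (5.15 ± 1.33 and 8.57 ± 0.680 CPM), and *Nr4a1* in 3XNeg nuclei (13.4 ± 2.38 and 22.7 ± 3.08 CPM). *Per1* was higher in PU.1 nuclei, at 47.7 ± 13.7 and 117 ± 14.3 CPM. *Pde10a* was higher without overlap in 3XNeg nuclei (245 ± 11.3 and 269 ± 9.78 CPM) and overlapped in GFAP and PU.1 nuclei. The levels of *Nr4a3*, *Nr4a2* and *Map3k19* overlapped between the treatments in all 3 populations, with *Nr4a3* at 22.9 ± 3.77 and 18.4 ± 3.41 CPM and *Map3k19* at 35.7 ± 11.4 and 29.2 ± 5.70 CPM in GFAP nuclei.

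**Figure D3:**
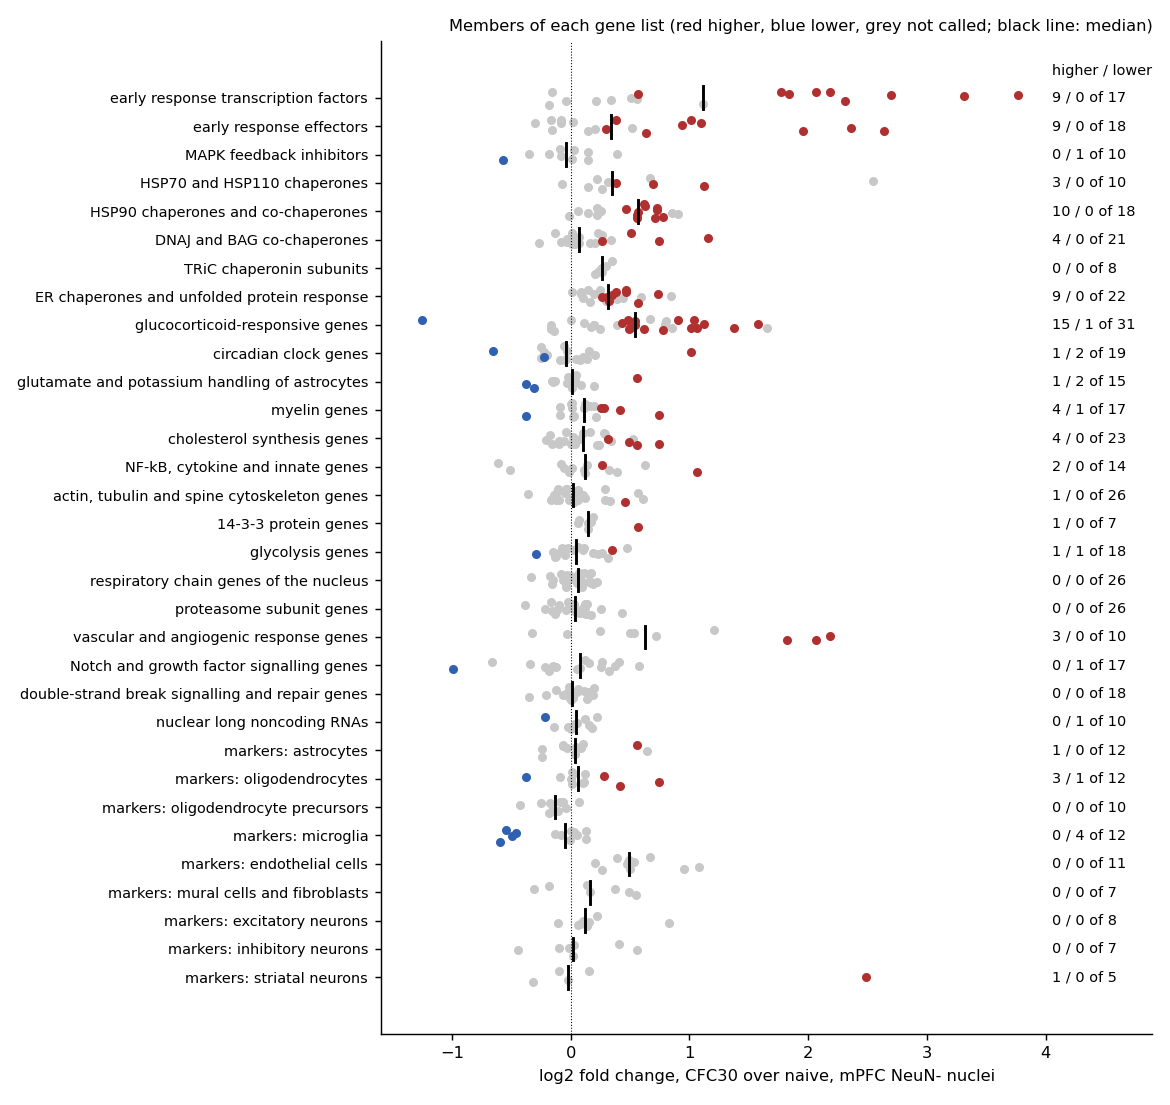
Log2 fold change of CFC30 over naive mPFC NeuN- nuclei (x axis) for every tested member of each gene list (rows), with members called higher in red, called lower in blue and not called in grey, the median as a black line and the counts called higher and lower of those tested at the right; points are spread vertically at random for legibility. The early response, chaperone and glucocorticoid lists have medians of 0.07 to 1.11, and no member of the proteasome, respiratory chain and DNA repair lists was called.

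Other lists changed in few members. Of 17 myelin genes 4 rose and 1 fell, and 2 rose in each fit without 1 library but that without CFC30 replicate 2, where 4 did. The risen *Cldn11* and *Ugt8a* lost their calls in 5 of the 6 fits (adjusted p of up to 0.198 and 0.186). *Mobp*, a myelin protein of oligodendrocytes, rose from 652 ± 7.07 to 1067 ± 98.4 CPM (0.74 ± 0.09, adjusted p = 0.00036) and *Mal* from 311 ± 2.36 to 407 ± 45.8 CPM (0.42 ± 0.08, adjusted p = 0.0079). The summed oligodendrocyte markers were 10.5% higher in CFC30 libraries without overlap, at 7221 ± 263 and 7980 ± 414 CPM. Of 23 cholesterol synthesis genes 4 rose (2 without naive replicate 1 or CFC30 replicate 1), among them *Pmvk*, a kinase of the pathway (0.74 ± 0.14, adjusted p = 0.0046). *Pmvk* was not called without naive replicate 3 and CFC30 replicate 2 (adjusted p = 0.0606). Among clock genes *Per1* rose, while *Dbp*, an output gene of the clock, fell from 46.1 ± 2.98 to 28.7 ± 4.49 CPM (-0.66 ± 0.12, adjusted p = 0.0056). *Slc6a11*, the astrocytic GABA transporter GAT3, fell from 315 ± 16.5 to 237 ± 16.1 CPM (-0.38 ± 0.06, adjusted p = 0.0024). *Gfap*, the astrocyte intermediate filament, was at 14 ± 3.06 and 21.5 ± 6.20 CPM and was not called (adjusted p = 0.0802). None of 26 proteasome, 26 nuclear-encoded respiratory chain and 18 double-strand break repair genes was called by edgeR or by DESeq2, where 2, 0 and 4 had an unadjusted p under 0.05 in edgeR.

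Some microglial genes were lower. Microglia are the resident macrophages of the brain. Of 12 markers tested 4 fell, none rose and 4 had a log2 fold change above 0, with a median of -0.05. *Siglech*, a sialic acid receptor of microglia, stood at 179, 183 and 164 CPM in naive and 132, 113 and 121 CPM in CFC30 libraries (-0.49 ± 0.07, adjusted p = 0.00067). *P2ry12*, the purinergic receptor of process movement, stood at 189, 187 and 207 CPM in naive and 140, 103 and 135 CPM in CFC30 libraries (-0.59 ± 0.10, adjusted p = 0.0020). *Trem2*, a lipid receptor, fell from 37.4 ± 1.53 to 25.2 ± 2.99 CPM (-0.54 ± 0.10, adjusted p = 0.0055). Every CFC30 library lay below every naive library for these genes, where 15.6% of all genes tested were lower without overlap. Among the markers that were not called *Cx3cr1* was at 227 ± 5.59 and 203 ± 15.6 CPM (adjusted p = 0.385). The sum of the 12 was 1677, 1662 and 1698 CPM in naive and 1524, 1281 and 1394 CPM in CFC30 libraries, a drop of the mean by 16.6%. Without naive replicate 3 and CFC30 replicate 2, 3 of the markers were called lower, and *Trem2* was not (adjusted p = 0.0552).

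**Figure D4:**
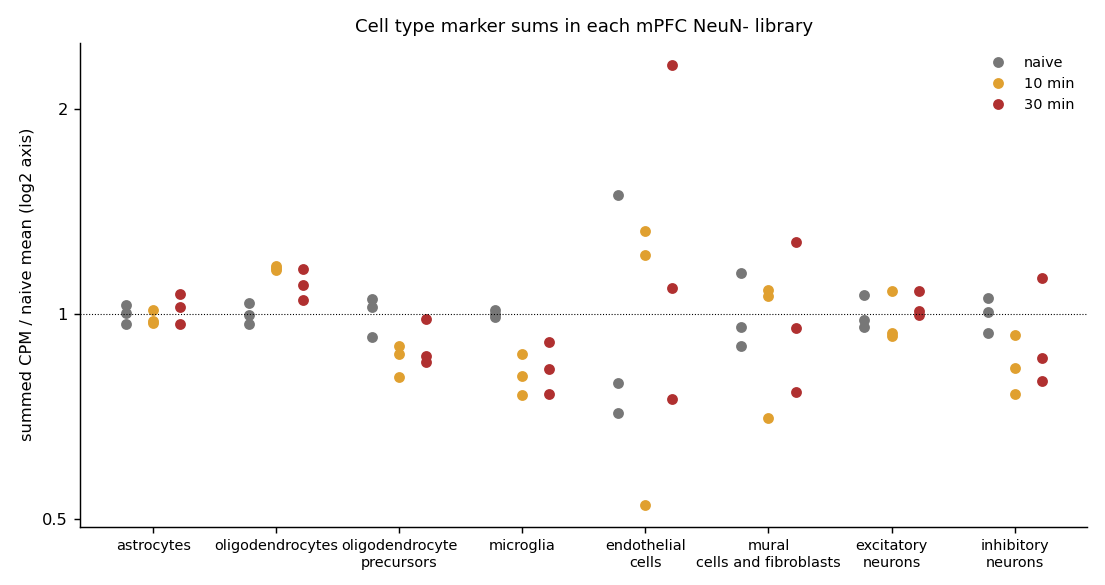
Summed CPM of the markers of 8 cell types in each mPFC NeuN- library, divided by the mean of the naive libraries (y axis, log2 scale), for naive (grey), CFC10 (10 min, yellow) and CFC30 (30 min, red) libraries. The microglial sum is lower in all CFC10 and CFC30 libraries than in the naive libraries, the oligodendrocyte sum is higher, and endothelial markers spread over the widest range, with naive replicate 3 and CFC30 replicate 2 high.

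A broader set was also examined. With genes assigned to the population where their saline CPM in the hippocampus was at least 8-fold that in the other sorted populations, 72 of 514 PU.1 genes were lower (14%) and 9 higher (1.75%) in CFC30 mPFC NeuN- nuclei, beside 3.18% and 2.68% of all genes. Of 203 GFAP genes 29 were lower (14.3%) and 22 higher (10.8%), and of 183 3XNeg genes 16 were lower and 16 higher (8.74% each). The median log2 fold change of the PU.1 genes was -0.10 in the mPFC and 0.07 in hippocampal NeuN- nuclei. *Cd180*, *Klhl6*, *Ly86* and *Ptgs1*, immune genes named after their values were seen, fell with log2 fold changes of -1.17 ± 0.09, -1.20 ± 0.13, -0.97 ± 0.12 and -0.80 ± 0.09. *Cmklr1*, a chemoattractant receptor and also a PU.1 gene, rose (0.53 ± 0.09, adjusted p = 0.0019). *Ighd*, an immunoglobulin heavy chain gene, fell from 7.88 ± 1.62 to 2.67 ± 0.447 CPM (-1.53 ± 0.25, adjusted p = 0.0020).

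Among the largest falls, that of *Adamts16* had the smallest adjusted p. *Adamts16* (chr13:70727802-70841811, - strand), a secreted metalloprotease, stood at 45.1, 34.0 and 40.9 CPM in naive and 16.3, 16.3 and 14.4 CPM in CFC30 libraries, far apart (-1.32 ± 0.11, adjusted p = 6.1e-06). In hippocampal nuclei sorted after saline *Adamts16* was highest in PU.1 nuclei, at 197 CPM. It was at 33.4 CPM in GFAP, 13.4 in NeuN and 3.52 in 3XNeg nuclei. *Npcd* (-1.73 ± 0.25) and *Cybrd1*, a ferric reductase (-1.57 ± 0.29), fell with adjusted p of 0.00097 and 0.0049. The remaining named falls were *4932438H23Rik*, *Gm44577*, *Gm13844*, *Gm13266*, *Gm33858* and *4930447K03Rik*, with log2 fold changes of -1.47 to -1.29. The call of *Gm33858* was lost without at least 1 of the libraries (adjusted p of up to 0.0914). By annotated type, 49 of 499 lincRNA genes fell (9.82%) and 2 rose, 36 of 439 antisense genes fell (8.2%) and 2 rose, and 22 of 210 processed transcripts fell (10.5%) and 6 rose, whereas 347 of 11874 protein-coding genes fell (2.92%) and 387 rose (3.26%). The median log2 fold change of the lincRNAs was -0.23 in NeuN- and -0.13 in NeuN+ nuclei. As the strand setting of the counting is not given in the sources used here, reads of antisense genes and of their partners may be mixed. Among 10 well-studied nuclear noncoding RNAs edgeR called only *Pantr1* (-0.21 ± 0.06, adjusted p = 0.0488), and this call was lost in 5 of the 6 fits without 1 library.

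Time separated the responses. Between CFC10 and CFC30, a contrast that uses no naive library, 82 genes were higher and 22 lower at 30 minutes (0.552% and 0.148% of 14866, 0.7% together). *Nr4a3* was at 6.05, 4.91 and 6.79 CPM after 10 minutes, and its difference between the times was 2.91 ± 0.18 on the log2 scale (adjusted p = 7.45e-07). *Map3k19* stood at 27.8, 22.3 and 25.1 CPM after 10 minutes (difference 1.58 ± 0.09, adjusted p = 2.4e-07), and *Usp2* at 70.9, 52.6 and 58.5 CPM (1.27 ± 0.09, adjusted p = 4.4e-06). These genes were thus higher at 30 than at 10 minutes. *Fosl2*, *Nr4a2*, *Per1* and *Ntrk2* were likewise higher at 30 minutes, with differences of 1.63, 2.36, 0.77 and 0.61. For *Fos*, *Egr1*, *Arc* and *Hspa8* the difference was -0.17 ± 0.24, 0.02 ± 0.24, 0.06 ± 0.13 and 0.05 ± 0.10 and was not called, each being above naive at 10 minutes already, where 0.74% of genes were higher and 0.969% lower (1.71% together). *Pde10a* had a difference of 0.93 ± 0.19 (adjusted p = 0.035), which was not called in 4 of the 6 fits without 1 library, where the adjusted p reached 0.192. In CFC10 it was at 358, 343 and 685 CPM. Without CFC10 replicate 1 the counts were 128 higher and 74 lower, without CFC10 replicate 2 they were 35 and 1, and the lower count was 2, 9 and 9 without CFC10 replicate 3, CFC30 replicate 1 and CFC30 replicate 3.

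The effect of CFC30 was then compared with that in NeuN+ nuclei of the same region. The difference of the log2 fold changes was called for 249 genes with a more positive effect in NeuN- nuclei (1.54% of 16142) and for 407 with a more negative one (2.52%), or 4.06% together. Without NeuN+ naive replicate 1, CFC30 replicate 1 or CFC30 replicate 2 the count of more positive effects was 136, 141 and 146. In NeuN+ nuclei themselves 8.19% of genes were higher and 6.13% lower (14.3% together). *Usp2* differed by 1.59 ± 0.11 (adjusted p = 1.3e-07), with 32.4, 29.0 and 31.8 CPM in naive and 28.3, 29.2 and 24.7 CPM in CFC30 NeuN+ libraries. *Sgk1* differed by 1.03 ± 0.11 (adjusted p = 2.2e-05), with 110, 108 and 100 CPM in naive and 115, 109 and 110 CPM in CFC30 NeuN+ libraries. Both rose in the NeuN- fraction, and neither was called in the NeuN+ fraction (-0.14 and 0.10). *Nr4a3* rose in both fractions but by more in NeuN- nuclei (difference 1.85 ± 0.27, adjusted p = 0.00053), and its level after CFC was still the higher in NeuN+ nuclei, at 62.3, 58.4 and 70.8 CPM. *Pde10a* also rose in both, from 1368, 1527 and 1401 CPM to 2675, 2443 and 2559 CPM in NeuN+ nuclei, with a difference of 1.62 ± 0.11 (adjusted p = 1.3e-07). Its increase in CPM was thus larger in NeuN+ nuclei although its fold change was larger in NeuN- nuclei. *Map3k19* was at 0.664 to 1.94 CPM in NeuN+ nuclei and differed by 2.06 ± 0.32 (adjusted p = 0.00093).

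*Arc* went the other way. In NeuN+ nuclei it rose from 5.77, 5.39 and 2.82 CPM to 30.5, 29.3 and 35.6 CPM, and the difference was -1.71 ± 0.26 (adjusted p = 0.00069). *Dnajb5*, a co-chaperone of HSP70, rose in NeuN+ nuclei (1.02) and was at 17.7 and 17.0 CPM in naive and CFC30 NeuN- nuclei (difference -1.05 ± 0.15, adjusted p = 0.00060). For *Hspa8*, *Hspa5*, *Hsph1*, *Per1* and *Ntrk2* the difference was 0.11, 0.04, 0.12, -0.12 and 0.06 and was not called. Some neuronal genes were present in naive NeuN- libraries at 6.92% (*Snap25*), 2.87% (*Syt1*) and 12.5% (*Slc17a7*) of their naive NeuN+ level. *Gad1*, a gene of inhibitory neurons, was at 26.6 CPM in naive NeuN- and 36.5 CPM in naive NeuN+ nuclei, or 72.8%. The summed excitatory neuron markers were 827.4, 848.3 and 921.7 CPM in naive NeuN- and 3499, 3419 and 3706 CPM in naive NeuN+ libraries. The rise of *Arc* in NeuN- nuclei was 26.2% of its rise in NeuN+ nuclei in CPM. For *Homer1*, which rose from 240 to 732 CPM in NeuN+ nuclei, this share was 2.97%. Its difference between the fractions was -1.25 (adjusted p = 2.0e-05). The part of neuronal RNA in the NeuN- rises of *Arc* and *Homer1* was not tested. *Map3k19* and *Usp2* were higher in every naive and every CFC30 NeuN- library than in any naive or CFC30 NeuN+ library, so this difference was present before conditioning.

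**Figure D5:**
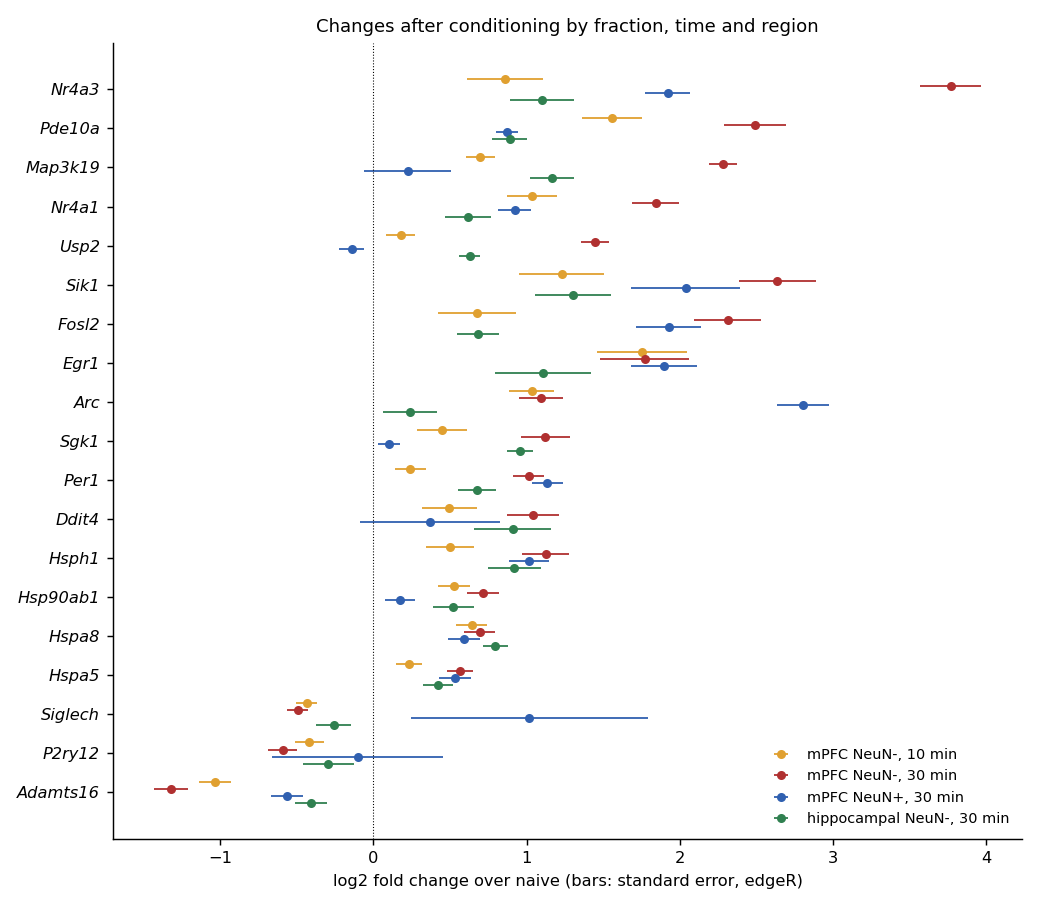
Log2 fold change over naive (x axis, with the standard error from edgeR as bars) of 19 genes in mPFC NeuN- nuclei after 10 minutes (yellow) and 30 minutes (red), in mPFC NeuN+ nuclei after 30 minutes (blue) and in hippocampal NeuN- nuclei after 30 minutes (green). *Usp2*, *Sgk1* and *Map3k19* rise in NeuN- nuclei of both regions while the NeuN+ values lie near 0, and *Arc* has its largest change in NeuN+ nuclei; the 10 and 30 minute values of mPFC NeuN- nuclei share their naive libraries.

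In hippocampal NeuN- nuclei, prepared with another version of the library kit and analysed as a table of its own, 177 genes were higher and 175 lower 30 minutes after CFC (1.2% and 1.18% of 14802, 2.38% together). Of 4 naive libraries a pair held identical values and was counted once, which left 3 naive and 4 CFC30 libraries. Of the 395 risen mPFC genes that were tested there, 120 rose too, which is 30.4% of these genes and 67.8% of the hippocampal rises, and none fell. Of 445 fallen genes 109 fell too (24.5%, and 64.5% of the 169 hippocampal falls that were tested in the mPFC), and none rose. Whether both regions came from the same mice is not given in the sources used here. *Map3k19* (1.16 ± 0.14), *Sgk1* (0.96 ± 0.09), *Pde10a* (0.89 ± 0.11), *Usp2* (0.63 ± 0.07) and *Hspa8* (0.80 ± 0.08) rose with adjusted p of 0.00081, 6.5e-05, 0.0010, 0.00027 and 0.00020. *Nr4a3* rose by 1.10 ± 0.21 (adjusted p = 0.014), against 3.77 in the mPFC. For *Arc* (0.24, adjusted p = 0.545), *Fos* (0.57, adjusted p = 0.474), *P2ry12* (-0.30, adjusted p = 0.402) and *Siglech* (-0.26, adjusted p = 0.275) no change was called in the hippocampus. The difference between the regions was not tested. When 1 library was left out, the hippocampal counts ranged from 35 to 152 higher and from 26 to 191 lower, with the lowest counts without naive replicate 3. Without naive replicate 1 they were 39 and 37, without naive replicate 2 44 and 52, without CFC30 replicate 1 44 and 39, and without CFC30 replicate 2 94 and 83.

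The deposited mPFC peaks of γH2AX, the histone mark of DNA double-strand breaks, hold 260 intervals that join the peaks of naive and of CFC tissue, called on merged replicates and without values per replicate. Of 267 tested genes annotated to a peak, 31 were higher (11.6%) and 6 lower (2.25%) in NeuN- nuclei after CFC. They are more highly expressed than other genes. At or above their median naive CPM, 20 of 134 were higher (14.9%), against 4.61% of 5658 other genes at or above that cut-off. These sets were not matched beyond the cut-off. Their median naive CPM was 102 and 72.3, and their median length 35.6 and 58.7 kb. The 31 make up 7.79% of the risen genes. With the smallest adjusted p they were *Usp2*, *Nr4a1*, *Per1*, *Ntrk2*, *Arl4d*, *Arc*, *Sgk1*, *Hspa8* and *Hsp90ab1*. *Arl4d*, a small GTPase, rose by 1.91 ± 0.22 (adjusted p = 0.00011). *Sirpa*, an inhibitory receptor of phagocytosis, lay under a peak and fell (-0.46 ± 0.06, adjusted p = 0.000695). The peaks were made from whole tissue, so the fraction of nuclei that carries them cannot be told apart.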

How the data were processed

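The authors sorted fixed nuclei by NeuN, made stranded total RNA libraries, mapped reads to GRCm38 (HISAT2), discarded duplicates (Picard) and deposited counts over whole gene bodies (featureCounts). The strand setting and tool versions are not given in the sources used here. Genes, lengths and coordinates were taken from GENCODE (53682 of 53749 IDs matched). Genes with a mean FPKM, calculated here from the counts, above 0.2 in at least 1 group were tested with the quasi-likelihood test of edgeR 4.0.16 (R 4.3.3) with TMM scaling and Benjamini-Hochberg adjustment, with the 9 mPFC NeuN- libraries fitted together. The fractions were compared by an interaction term over 12 libraries, fitted as group means. Whether same-numbered NeuN- and NeuN+ libraries were sorted from the same tissue is not given in the sources used here. Such a pairing was not modelled in the main fit. DESeq2 1.42.0, other filters, size factors, a replicate block and fits without single libraries were alternatives. The scripts were tested on simulated data. There edgeR recovered 82% of 1.5-fold and 100% of 2-fold changes, and 7.14% of its calls were false. DESeq2 recovered 78% and 97%, and 3.85% of its calls were false. The deposited γH2AX peaks are coordinates that the authors called with MACS2 on merged replicates.

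The members and gene lists were chosen with earlier results of these data known. Named genes were the 15 called genes that rose most and the 10 that fell most with no overlap between groups and a mean count of at least 50 in the higher group, up to 6 members of each list by smallest p, the marker genes, a fixed set of study genes, and the 10 called peak genes with the smallest p. Genes named outside this rule are said to be so or appear as members of a list count. Motifs were searched in RefSeq promoters (GRCm38.p6).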

Additional observations from a re-analysis of the deposited data

Results flagged for a closer look

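The effect of CFC30 differed between NeuN- and NeuN+ nuclei of the mPFC in the interaction term of edgeR (adjusted p under 0.05) for 27 named genes. The NeuN- minus NeuN+ difference, on the log2 scale, was 2.061 for *Map3k19*, 1.853 for *Nr4a3*, 1.624 for *Pde10a* and 1.593 for *Usp2*. It was 1.025 for *Sgk1*, 0.9231 for *Nr4a1* and 0.5428 for *Hsp90ab1*, the last of which was not called in 6 of the 12 fits without 1 library. The difference was -0.6994 for *Sirpa*, -0.7541 for *Adamts16* and -1.047 for *Dnajb5*. It was -1.442 for *Gm13844*, -1.604 for *Gm44577* and -1.706 for *Arc*, and that of *Gm44577* was not called in 10 of the 12 fits without 1 library. Among other list members the difference was 0.9247 for *Ahsa2*, 0.6784 for *Ugt8a*, 0.6296 for *Pfkm*, 0.6154 for *Rorb* and 0.5542 for *Slc4a4*. It was -0.3681 for *Cry2*, -0.4064 for *Pantr1*, -0.4098 for *Hk1*, -0.5464 for *Dusp8*, -0.6928 for *Spred2* and -0.7726 for *Sik2*. For *Mbp*, *Bhlhe40* and *Spry4* it was -1.039, -1.272 and -1.503. A negative difference need not be a fall in NeuN- nuclei. The log2 fold changes of these genes were 0.12, -0.25 and -0.18 in NeuN- and 1.16, 1.03 and 1.32 in NeuN+ nuclei. *Sik2* rose by 0.29 in NeuN- and 1.07 in NeuN+ nuclei. The calls of *Ugt8a*, *Cry2*, *Dusp8*, *Pantr1* and *Spred2* were lost in 9, 8, 6, 3 and 2 of the 12 fits.

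In the corticosterone experiment, 1 of 4 libraries stood far from the others in 3 of 42 groups of values examined, where chance gives about 1 in 20. The gap of that library to its neighbour, as a share of the range, was 0.896 for *Usp2* and 0.876 for *Per1* in GFAP nuclei after corticosterone, and 0.853 for *Ddit4* in 3XNeg nuclei after saline, above the critical value of 0.829.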

How the results depend on the processing

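No call of a named gene reversed its direction under an alternative. The balance of all calls turned from 398 higher and 472 lower to 441 and 418 with DESeq2, and the astrocyte markers from 1 higher and none lower to none higher and 2 lower without naive replicate 3 and CFC30 replicate 2. With no filter on low values, 729 genes were higher and 757 lower in CFC30 than in naive mPFC NeuN- nuclei, 354 and 160 in CFC30 than in CFC10, and 486 and 431 in the hippocampus, and 444 genes had a more positive effect in NeuN- than in NeuN+ nuclei. With the filter of edgeR, 12 genes were lower in CFC30 than in CFC10. Without both naive replicate 3 and CFC30 replicate 2, chosen after seeing the data, 262 genes were higher and 314 lower, and 51.8% of the 870 calls were kept. When 1 library was left out, the counts ranged from 201 to 343 higher and from 201 to 394 lower for CFC30 against naive, keeping 45.5% to 68.6% of the calls. For CFC30 against CFC10 they ranged from 35 to 128 and from 1 to 74, for the difference between fractions from 136 to 313 and from 274 to 502, and for the hippocampus from 35 to 152 and from 26 to 191. DESeq2 called 859 genes, of which 743 were shared. With group means removed, same-numbered naive and CFC30 libraries correlated at 0.154, 0.0148 and 0.119, and differently numbered ones at -0.169 to 0.0391. What the replicate numbers stand for is not given in the sources used here. The main fit did not pair libraries by number, and whether they share a batch was not tested. With the replicate block 1028 genes were called in the mPFC, 850 of them shared, and 285 higher and 315 lower in the hippocampus. Of the 85 named calls none was lost with the block, 10 to 19 without 1 library and 21 without both libraries. Genes named outside the rule for named genes were not followed singly through these alternatives. Counts by promoter motif, sorted population, gene type and γH2AX peak were not repeated under them. Nor were the shares higher after corticosterone or the calls shared with the hippocampus.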
